A study of Mus musculus with 8 samples.

Results

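Dnmt3a, Dnmt3b, Uhrf1 and Hells encode 4 proteins that set or keep methylation of cytosine in DNA. They were chosen by name, because DNA methylation is known to change when mouse spermatogonia begin to differentiate, and were followed in all 8 libraries of a bulk RNA-seq series. The rule names the genes and uses no expression value, but earlier results of these data were known when they were chosen. They are 4 of the 5736 genes in the table of normalised read counts. Between undifferentiated and A1 spermatogonia the mRNAs of Dnmt3b, Uhrf1 and Hells each rose more than 2-fold, whereas the mRNA of Dnmt3a did not pass the test. Between A1 and A3 spermatogonia none of the 4 passed the test.

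Methyl groups on CpG dinucleotides are written by DNA methyltransferases. DNMT3A and DNMT3B are the de novo enzymes, which methylate sites that carried no methyl group before, and germ cells also use the cofactor DNMT3L. After each round of DNA replication the new strand lacks the mark: UHRF1 binds such hemimethylated DNA and brings in DNMT1, the maintenance methyltransferase, to copy it. HELLS, also called LSH, is a chromatin remodeler of the SNF2 family that opens nucleosomal DNA to these enzymes, above all at repeats. In the male germ line most methylation is laid down before birth, and further changes accompany the passage from stem and progenitor spermatogonia to differentiating spermatogonia.

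The samples were germ cells from pups of the strain CD1:Uchl1-eGFP, in which the Uchl1 promoter drives EGFP, sorted by fluorescence for EGFP. All 3 groups came from the same synchronisation scheme. Pups received bis-(dichloroacetyl)-diamine, an inhibitor of retinoic acid (RA) synthesis, by mouth at 100 µg per g of body weight for 10 days from postnatal day 1, which holds spermatogonia undifferentiated. RA, the signal for differentiation, was then given once under the skin on day 11, as 10 µl at 10 µg/µl in DMSO, and the inhibitor was stopped. The 2 libraries labelled Aal held undifferentiated spermatogonia, present at day 11 when RA was due. The 3 libraries labelled A1 held differentiating spermatogonia as found 24 h after RA, and the 3 labelled A3 held a later differentiating stage. The labels give no age at collection for each library. They state that testes of at least 5 pups of a litter were pooled for an experiment, and the study's methods give 2 or 3 independent cell preparations for a group. Spermatogonial stem cells do not respond to RA, so an A1 or A3 library can still hold some of them. There was no group of pups without the inhibitor. In the study's timeline the undifferentiated stage comes before RA. Aal thus differs from A1 and A3 in RA exposure, age and time since the inhibitor at once, and these cannot be told apart.

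Depth, recovered from the steps in the values, was 18276164 to 27316451 counted reads for a library. Each member value rested on 3167 to 22566 reads, which gives a counting error of 0.666% to 1.78%. The spread between libraries was of that size for Uhrf1 in A1 and Dnmt3b in A3, and larger in the other groups. The levels below are in FPKM (fragments per kilobase of gene, scaled to the size of the library). Comparing genes on this scale rests on the length used for each. Recovered from the values, it was 9947 bases for Dnmt3a, 4327 for Dnmt3b, 3651 for Uhrf1 and 3019 for Hells. Whether these lengths match the transcripts present was not tested. The stage labels were checked against marker genes. The summed FPKM of 11 undifferentiated markers was 379.7 to 423 in Aal, 83.8 to 131 in A1 and 81.4 to 88.4 in A3, and that of 5 differentiating markers was 87.0 to 99.7, 152 to 161 and 191 to 211. Uchl1 itself, whose promoter marks the sorted cells, stood at 4860 ± 519 FPKM (SD, n = 2) in Aal, 5459 ± 1648 (n = 3) in A1 and 5587 ± 316 (n = 3) in A3. Sertoli cells, the somatic cells that enclose germ cells, left uneven traces, with 10 of 20 markers in the list in the table. Their summed FPKM was 50.05 and 39.2 in Aal. It was 58.7, 56.5 and 383 in A1 replicates 1, 2 and 3, and 374, 276 and 201 in A3 replicates 1, 2 and 3. The third A1 library thus stood with the A3 libraries in these markers. Sums for other somatic cells were smaller: Leydig cells (4 markers, 1.05 to 10.3), peritubular myoid cells (3 markers, 1.56 to 6.53), macrophages (3 markers, 0.459 to 10.5) and endothelial cells (4 markers, 2.76 to 8.98). The third A1 library held the highest sum of all 8 for Leydig cells, myoid cells and macrophages as well as Sertoli cells, and no other library exceeded 3.67, 3.36 and 1.63 in the first 3. No red blood cell marker was in the table.

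In the mm9 build used for the files, all 4 genes lie on the plus strand. Dnmt3a spans chr12:3806007-3914443 with 18 annotated transcripts in GENCODE M1, and Dnmt3b spans chr2:153475186-153513466 with 12. Uhrf1 spans chr17:56442744-56462909 with 7 transcripts, and Hells spans chr19:39005405-39045541 with 6. Dnmt3a overlaps 2 annotated genes on the opposite strand and Dnmt3b overlaps 1, while Uhrf1 and Hells overlap none. The kit marks strand, but the strand setting of the counting is not given in the sources used here, so for Dnmt3a and Dnmt3b reads of the antisense genes cannot be told apart from their own. The counts are per gene, so isoforms were not separated.

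The promoters are shown because 3 members moved together and 1 did not. RefSeq start sites (build GRCm38.p6) gave 3 windows for Dnmt3a, 1 for Dnmt3b, 2 for Uhrf1 and 1 for Hells, each of 300 bases from 250 before the start to 50 after it. For each gene the window with the most E2F-type octamers is shown, or the most upstream where none held one. E2F factors control many genes of the G1 to S transition. The octamers searched, on both strands, were TTTCCCGC, TTTGGCGC, TTTCGCGC and TTTGCCGC, and capitals mark them. All 4 windows also matched mm9 exactly at 1 place, given here with the plus strand read 5′ to 3′.
Hells, chr19:39005230-39005529: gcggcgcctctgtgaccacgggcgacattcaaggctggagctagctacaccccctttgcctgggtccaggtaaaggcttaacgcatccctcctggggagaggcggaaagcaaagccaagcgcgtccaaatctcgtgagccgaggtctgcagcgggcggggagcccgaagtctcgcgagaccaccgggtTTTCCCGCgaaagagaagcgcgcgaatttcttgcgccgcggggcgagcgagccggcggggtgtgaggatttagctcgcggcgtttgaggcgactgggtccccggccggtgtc
Uhrf1, chr17:56443486-56443785: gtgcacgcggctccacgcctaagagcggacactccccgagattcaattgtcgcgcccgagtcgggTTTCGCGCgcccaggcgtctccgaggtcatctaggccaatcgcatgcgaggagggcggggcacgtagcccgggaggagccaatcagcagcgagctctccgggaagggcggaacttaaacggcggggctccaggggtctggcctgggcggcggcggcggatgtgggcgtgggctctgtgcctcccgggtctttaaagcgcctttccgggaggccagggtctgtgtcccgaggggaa
Dnmt3b, chr2:153474935-153475234: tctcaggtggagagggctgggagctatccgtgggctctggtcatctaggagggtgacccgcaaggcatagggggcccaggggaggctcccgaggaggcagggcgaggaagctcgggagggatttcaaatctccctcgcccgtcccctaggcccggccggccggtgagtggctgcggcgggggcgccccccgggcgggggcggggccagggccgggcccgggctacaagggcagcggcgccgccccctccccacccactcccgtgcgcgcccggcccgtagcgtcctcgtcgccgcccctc
Dnmt3a, chr12:3806730-3807029: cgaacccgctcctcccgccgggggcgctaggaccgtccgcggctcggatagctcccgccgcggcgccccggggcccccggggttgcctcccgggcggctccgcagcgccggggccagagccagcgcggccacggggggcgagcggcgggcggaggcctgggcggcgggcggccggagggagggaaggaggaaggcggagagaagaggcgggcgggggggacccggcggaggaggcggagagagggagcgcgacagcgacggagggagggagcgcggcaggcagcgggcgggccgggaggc
The Hells window held 1 octamer, TTTCCCGC, at base 189 of the window, and the Uhrf1 window held 1, TTTCGCGC, at base 66. The other Uhrf1 window held none. Such an octamer was present in 2.26% of 32851 windows of this length, which cover 27025 genes. Each octamer searched contains a CpG, and this share is not matched for CpG content. The share among windows as rich in CpG as those shown was not computed. None of the windows of Dnmt3a or Dnmt3b held one. On either strand the CCAAT box occurred 2 times in the Uhrf1 window shown and 3 times in the other Uhrf1 window, where 2 of the 3 overlap on opposite strands, and in none of the other member windows, against 37.4% of all windows. The octamer CNCCTCAG, of the kind bound by the RA-induced factor STRA8, was in no member window and in 7.94% of all. The windows shown were rich in CpG, with 34 in Hells, 33 in Uhrf1, 30 in Dnmt3b and 46 in Dnmt3a against a median of 7 over all windows. In the mm9 annotation 125 bases of the Hells window and 50 of the Uhrf1 window are exonic. In the Dnmt3b window 49 bases are exonic, and none are in the Dnmt3a window. The Dnmt3a window and the Uhrf1 window shown both lie wholly within their annotated genes. A match of letters describes the sequence and shows no binding.

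Dnmt3a, the de novo enzyme with the broader expression in adult tissues, was the member that did not pass the test in either comparison with Aal. Its level was 34.3 and 31.1 FPKM in the Aal libraries, 27.5, 31.4 and 30.3 in A1, and 25.7, 28.3 and 28.8 in A3. The A1 values reached into the Aal range, and all 3 A3 values lay below both Aal values. Group means were 32.7 ± 2.28 FPKM (SD, n = 2), 29.7 ± 1.97 (n = 3) and 27.6 ± 1.65 (n = 3). The log2 change from Aal to A1 was -0.13 with a standard error of 0.08 and a 95% interval of -0.32 to 0.06 (limma, Benjamini-Hochberg adjusted p = 0.240). From Aal to A3 it was -0.23 (0.08, -0.43 to -0.04, limma adjusted p = 0.0414), which met neither requirement for a call, an adjusted p of at most 0.01 and a log2 change beyond 1 in size. All log2 changes are of FPKM + 1.

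Dnmt3b, the de novo enzyme known for its part in early development and at centromeric repeats, rose at the first step. Its level was 30.3 and 32.0 FPKM in Aal, 66.4, 81.6 and 78.5 in A1, and 66.5, 66.6 and 68.0 in A3. Every A1 and A3 library held more than both Aal libraries, and the 3 A3 values were close to the lowest A1 value. The means were 31.1 ± 1.19 (SD, n = 2), 75.5 ± 8.04 (n = 3) and 67.0 ± 0.826 FPKM (n = 3). The A1 mean was 2.42 times the Aal mean, and the log2 change was 1.25 (SE 0.09, interval 1.02 to 1.47, limma adjusted p = 0.000221). The A3 mean was 2.15 times the Aal mean (log2 change 1.08, SE 0.06, interval 0.93 to 1.23, limma adjusted p = 1.36e-05). With quantile normalisation this last change was 0.996, just short of the required 1, at an adjusted p of 2.41e-05.

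Uhrf1, which reads hemimethylated DNA, rose by a similar factor. Its level was 51.3 and 45.3 FPKM in Aal, 112, 112 and 110.1 in A1, and 125, 102 and 110.3 in A3. The A1 libraries differed by little, and the A3 libraries lay on both sides of them. The means were 48.3 ± 4.24 (SD, n = 2), 111 ± 1.22 (n = 3) and 113 ± 11.8 FPKM (n = 3). In A1 the mean was 2.31 times that of Aal, a log2 change of 1.19 (SE 0.07, interval 1.03 to 1.35, limma adjusted p = 0.000127). In A3 it was 2.33 times that of Aal, a log2 change of 1.2 (SE 0.10, interval 0.98 to 1.43, limma adjusted p = 3.81e-05).

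Hells, the chromatin remodeler, was the most abundant of the 4 in every library. It stood at 133 and 110.1 FPKM in Aal, 259, 274 and 280.0 in A1, and 312, 289.8 and 263 in A3. By level it ranked between 35 and 148 among the 5736 genes, whereas Dnmt3a ranked between 839 and 1175. The means were 122 ± 16.3 (SD, n = 2), 271 ± 10.9 (n = 3) and 288 ± 24.5 FPKM (n = 3), with no overlap of A1 or A3 with Aal. The rise to A1 was 2.23-fold (log2 change 1.15, SE 0.09, interval 0.94 to 1.37, limma adjusted p = 0.000245). The A3 mean was 2.37 times the Aal mean (log2 change 1.24, SE 0.10, interval 1.00 to 1.48, limma adjusted p = 4.19e-05). In these bulk samples a higher level can come from more RNA in each cell or from more cells that hold the RNA, and the data cannot tell the 2 apart.

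**Figure D1:**
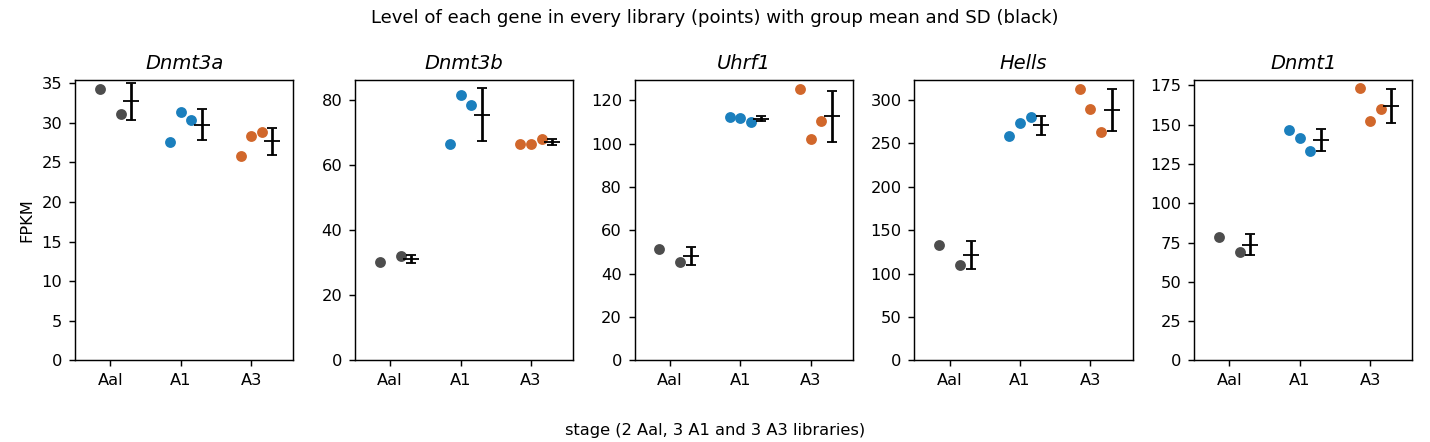
Level in FPKM (vertical axes, each from 0) of Dnmt3a, Dnmt3b, Uhrf1, Hells and Dnmt1 in 2 Aal, 3 A1 and 3 A3 libraries. Points are libraries, and the black bar with whiskers is the group mean with its SD. The A1 and A3 points of every gene but Dnmt3a lie above both Aal points, while Dnmt3a stays between 25.7 and 34.3.

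Set against the whole table, 3 of 4 members were called higher in A1 than in Aal, a comparison in which 4.19% of 4632 tested genes were called higher and 9.15% in either direction. By log2 change Dnmt3b was number 123, Uhrf1 number 141 and Hells number 158 from the top. In the comparison of A3 with Aal the same 3 were called higher, against 7.87% of 4687 genes (17.6% in either direction), with Hells at 238, Uhrf1 at 251 and Dnmt3b at 316. Both comparisons use the same Aal libraries, so the second is not independent of the first. The groups did not overlap for 3 of 4 members in A1 and Aal, where 64.0% of tested genes did not overlap, and for 4 of 4 in A3 and Aal, where 73.1% did not. A lack of overlap is thus common in these data and tells little about the members.

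From A1 to A3 no member was called, in a comparison where 1.5% of 4590 genes were called in either direction. The log2 change was -0.10 for Dnmt3a (SE 0.07, interval -0.27 to 0.07, limma adjusted p = 0.387) and -0.16 for Dnmt3b (SE 0.08, interval -0.35 to 0.02, limma adjusted p = 0.193). It was 0.01 for Uhrf1 (SE 0.08, interval -0.17 to 0.19, limma adjusted p = 0.947) and 0.09 for Hells (SE 0.07, interval -0.08 to 0.26, limma adjusted p = 0.468). A1 and A3 overlapped for each of the 4, whereas 38.1% of tested genes did not overlap. None of the 4 had an unadjusted p under 0.05 in limma, where 1562 of 4590 genes did. Limma voom on recovered reads called none of the 4 either. These intervals bound the second step within 0.35 on the log2 scale in either direction. The Dnmt3b difference depended most on the first A1 library, the lowest of the A1 group. Without it the log2 change was -0.25 (limma adjusted p = 0.0281), still not called. The first A1 library also held the highest undifferentiated marker sum of its group, 131 FPKM against 92.2 and 83.8. A link between that sum and its Dnmt3b level was not tested.

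The 2 steps were then compared in a single fit over all 8 libraries, as the change from A1 to A3 minus the change from Aal to A1. The difference was -1.41 for Dnmt3b (SE 0.14, limma adjusted p = 0.000533), -1.18 for Uhrf1 (SE 0.14, limma adjusted p = 0.000996) and -1.07 for Hells (SE 0.16, limma adjusted p = 0.00187), all on the log2 scale. The change at the first step was therefore larger for these 3 than the change at the second, at an adjusted p of at most 0.05. A difference below 0 passed for 13.6% of 4789 genes. For Dnmt3a it was 0.03 (SE 0.13, limma adjusted p = 0.913). A1 enters both steps with opposite sign, so an A1 level that is high by chance pushes the difference below 0.

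**Figure D2:**
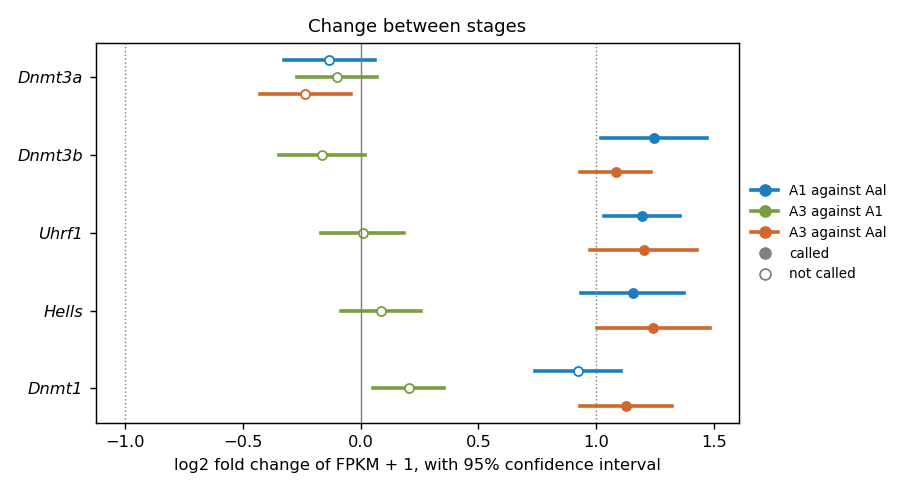
Log2 fold change of FPKM + 1 (horizontal axis) with its 95% confidence interval for the 4 genes and Dnmt1 in the 3 stage comparisons. Filled points were called and open points were not, and the dotted lines mark a log2 change of 1 in either direction. The A3 against A1 points lie between -0.16 and 0.20, and the called points between 1.08 and 1.25.

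The mRNA levels of the 2 de novo enzymes were also set against each other within each library. Dnmt3b made up 46.9% and 50.7% of the summed FPKM of Dnmt3a and Dnmt3b in the Aal libraries, 70.7%, 72.2% and 72.2% in A1, and 72.1%, 70.2% and 70.2% in A3. The shares were 48.8% ± 2.70 (SD, n = 2), 71.7% ± 0.879 (n = 3) and 70.8% ± 1.1 (n = 3). A1 and A3 shares overlapped and both stood apart from Aal. The size of each share rests on the lengths used for the 2 genes. The sum itself went from 63.8 ± 1.09 FPKM in Aal to 105 ± 10.0 in A1, with 94.7 ± 2.28 in A3. By contrast the ratio of Hells to Uhrf1 stayed between 2.30 and 2.84 in all 8 libraries, with group means of 2.51 ± 0.116, 2.43 ± 0.122 and 2.57 ± 0.238.

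A ratio within a library does not depend on how libraries are scaled. Of the 6 ratios between members, the 3 that include Dnmt3a did not overlap between A1 and Aal or between A3 and Aal. None of the 6 separated A3 from A1. The 3 ratios share Dnmt3a, so they are not separate results. Of single genes tested, 64.0% did not overlap between A1 and Aal and 73.1% between A3 and Aal. The share over ratios of other gene pairs was not computed. An exact two-sided permutation test over libraries cannot go below p = 0.2 with 2 against 3 libraries or p = 0.1 with 3 against 3. The smallest p over the 18 ratio tests was 0.2, with a Benjamini-Hochberg adjusted value of 0.45, so this test could not call a ratio at this number of libraries.

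**Figure D3:**
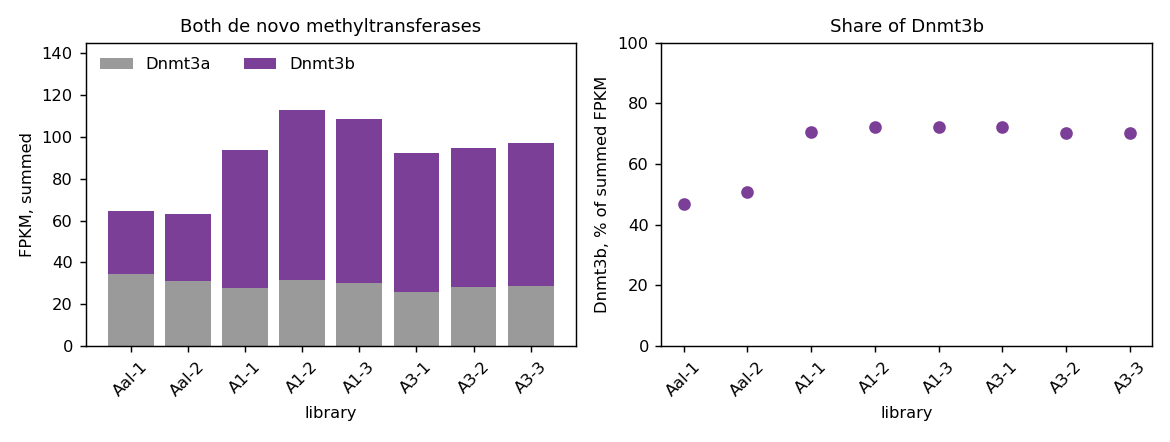
Left, FPKM of Dnmt3a (grey) and Dnmt3b (purple) stacked for each of the 8 libraries. Right, Dnmt3b as a percentage of that sum, which lies at 46.9% and 50.7% in Aal and between 70.2% and 72.2% in every A1 and A3 library.

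Within each stage the order of levels, which rests on the gene lengths used for FPKM, was nearly the same. In A1 and A3 it ran Dnmt3a, Dnmt3b, Uhrf1, Dnmt1 and Hells from low to high, with no overlap between neighbours inside a group. In Aal the Dnmt3a and Dnmt3b ranges overlapped, and the 3 others kept their order without overlap. Dnmt1, the maintenance enzyme that UHRF1 recruits, was at 78.3 and 68.9 FPKM in Aal, 146, 141 and 133 in A1, and 173, 152 and 160.0 in A3. The A1 values lay above the Aal values and below the A3 values. Its log2 change from Aal to A1 was 0.92 (SE 0.08, limma adjusted p = 0.000263), short of the fold required for a call. From A1 to A3 it was 0.20 (SE 0.07, limma adjusted p = 0.0679). From Aal to A3 it was 1.13 (SE 0.08, limma adjusted p = 2.98e-05), and Dnmt1 was called. Its own difference between the steps was -0.72 (SE 0.13, limma adjusted p = 0.00471).

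Other genes of the methylation machinery were taken as 5 lists. Over these lists (writers and their cofactors, demethylation and repair of modified cytosine, readers of methylated DNA, the methyl donor and folate cycle, and the piRNA pathway that directs methylation to transposons) 24 of 82 genes were in the table. Of 22 tested between A1 and Aal, 1 was called higher and 1 lower, a share near the 9.15% of all genes tested, with a median log2 change of 0.03, equal at this precision to the median of 0.03 over all genes tested. Between A3 and A1 none of 21 tested was called by limma or by voom (median -0.07, all genes 0.01). Of the 21, 11 had an unadjusted p under 0.05, as did 1562 of all 4590 genes tested. In A1 against Aal 2300 of 4632 genes had such a p, and in A3 against Aal 2911 of 4687, so it is common in these data. Between A3 and Aal 3 of 22 were called higher and 2 lower (median -0.10, all genes 0.05), where 17.6% of all genes tested were called in either direction. Dnmt3l, Uhrf2, Tet2, Tet3, Tdg, Cdca7, Mbd2, Mat2a, Ahcy and Pcna were not analysed here.

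Of the writers and cofactors, 7 of 18 were in the table. None was called between A1 and Aal (median log2 change 0.14, 3 with an unadjusted p under 0.05). Nor was any between A3 and A1 (median 0.09, 4 with an unadjusted p under 0.05). Dnmt1 alone was called, higher, between A3 and Aal (median 0.27). In that comparison Usp7 (0.30), Trim28 (0.39) and Setdb1 (-0.28) met the adjusted p and missed only the fold. Among demethylation and repair genes, 5 of 16 in the table, Gadd45b, a stress-induced gene linked to demethylation, was called higher in A1 with a log2 change of 2.12. Its level was 3.01 and 1.64 FPKM in Aal and 11.5, 15.5 and 12.7 in A1, and reached 21.2, 24.1 and 23.3 in A3, with no overlap between any pair of stages. Neil2, a DNA glycosylase of base excision repair, was called lower in A1 (-1.24), with 27.2 and 25.3 FPKM in Aal against 9.12 to 12.0 in A1. The list's median was -0.01 over 4 tested genes, and voom on recovered reads called all 4, Gadd45g higher and Apobec1 lower besides these. Between A3 and A1 none of 3 tested was called (median 0.09), and 1 had an unadjusted p under 0.05. That was Gadd45b, which missed only the fold (0.75, limma adjusted p = 0.00426). Between A3 and Aal the calls were Gadd45b (2.87) and its relative Gadd45g (1.02), both higher, and Neil2 (-1.31) and the cytidine deaminase gene Apobec1 (-1.17), both lower, with a median of -0.07.

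Tet1, which encodes an enzyme that oxidises 5-methylcytosine, lay under the filter for testing, FPKM of at least 1 in at least 2 libraries. It stood at 0.485 and 0.359 FPKM in Aal, 0.106, 0.148 and 0.272 in A1, and 0.240, 0.203 and 0.149 in A3, on 32 to 165 reads. All A1 and A3 values lay below both Aal values. When no gene was filtered out, the log2 change was -0.28 in A1 against Aal (limma adjusted p = 0.0708). In A3 against Aal it was -0.25 (limma adjusted p = 0.0348), and neither was called. At these levels a call was not possible. With 1 added to each FPKM, even a complete loss would fall short of the fold required, and the values understate the relative fall.

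None of the readers (3 of 9 in the table) was called in any of the 3 comparisons, with medians of -0.06 between A1 and Aal, -0.19 between A3 and A1 and -0.20 between A3 and Aal. For the methyl donor and folate cycle (5 of 20 in the table, 4 tested) no gene was called and the medians were 0.06, -0.05 and -0.20 in the same order. For the piRNA pathway (4 of 19 in the table) no gene was called, with medians of -0.06, -0.15 and -0.25. Again in that order, unadjusted limma p-values under 0.05 were found for 0, 2 and 1 of the readers. The counts were 1, 2 and 3 for the methyl donor genes and 2, 2 and 3 for the piRNA genes. Voom called none of them, under the same fold requirement. Some missed only the fold, with an adjusted p of at most 0.01. In A1 against Aal these were Mat2b (-0.62, limma adjusted p = 0.000633) and Pld6 (0.65, 0.00238). In A3 against Aal they were Mat2b (-0.70), Pld6 (0.71), Asz1 (-0.42), Shmt2 (0.34) and Henmt1 (-0.31). Without the fold 1252 of 4632 and 2048 of 4687 genes met the adjusted p in these comparisons.

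Genes of the cell cycle were listed because UHRF1, HELLS and DNMT1 act at replicating DNA. Of 46 S phase genes 14 were in the table, and 3 were called higher in A1 than in Aal: Cdc45 of the replicative helicase (log2 change 1.09), Pold1, the catalytic subunit of DNA polymerase delta (1.08), and Mcm2, a helicase subunit (1.05). The median of the 14 was 0.66 and all 14 changes were above 0. Of 24 G2 and M phase genes 14 were in the table and 10 were called higher, among them the topoisomerase gene Top2a (1.86), the kinase gene Plk1 (1.68), the cyclin gene Ccna2 (1.54) and the spindle factor gene Tpx2 (1.44). Their median was 1.3, against 0.03 over all genes tested, of which 4.19% were called higher. The 3 rising members, at 1.15 to 1.25, lay above the 14 S phase genes in the table and below that G2 and M median. The intervals overlap, with 0.94 to 1.37 for Hells and 0.86 to 1.32 for Cdc45, so this order is not resolved.

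Between A3 and A1 no gene of either cycle list was called, with medians of 0.06 for S phase and -0.11 for G2 and M phase, by limma or voom. An unadjusted p under 0.05 was found for 5 of the 14 S phase genes and 1 of the 14 G2 and M phase genes. Over all genes tested it was found for 1562 of 4590. Between A3 and Aal 5 S phase genes were called higher (Mcm2 1.28, Gins2 1.24, Pold1 1.21 and Cdc45 1.13 lead them, list median 0.85). So were 11 G2 and M phase genes (median 1.2), where 7.87% of all genes tested were called higher. In that comparison Mcm2 lay above all 3 rising members, which changed by 1.08 to 1.24. The summed FPKM of the 14 S phase genes was 402 and 354 in Aal, 706, 659 and 592 in A1, and 808, 653 and 683 in A3. That of the 14 G2 and M phase genes was 374 and 334 in Aal, 759, 929.6 and 908 in A1, and 689, 898 and 915 in A3. Both sums, like the 3 rising members, were higher in A1 and in A3 than in Aal. Within A3 the 2 sums parted, since the first A3 library held the highest S phase sum and the lowest G2 and M phase sum. The part of the share of cycling cells in the rise of the 3 members was not tested.

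**Figure D4:**
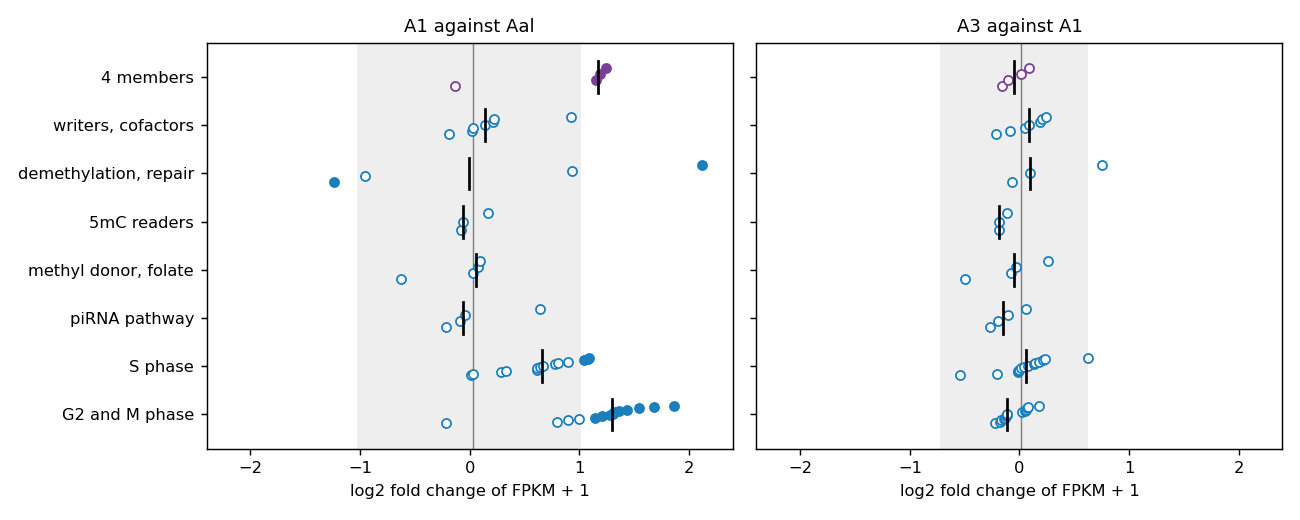
Log2 fold change of FPKM + 1 (horizontal axis) of each tested gene in the 4 members (purple) and in 7 lists (blue), for A1 against Aal and A3 against A1. Filled points were called, black bars are list medians, and the grey band holds the middle 90% of all genes tested with their median as a line. In A1 against Aal 3 members, 3 S phase genes and 10 G2 and M phase genes are filled on the right with Gadd45b (2.12) farthest out, Neil2 (-1.24) is filled on the left, and in A3 against A1 no point is filled.

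For each member the 3 genes with the most similar profile were found by Pearson's r of log2(FPKM + 1) over the 8 libraries, among 4788 genes. With 2 low and 6 high libraries many profiles look alike, so these values are descriptions. Dnmt3b was most like Aes (r = 0.996), Fam171a1 (0.996) and Hmgb3 (0.994). Uhrf1 was most like Trip13 (0.993), Hmgn1 (0.991) and Cdc45 (0.991), and Hells was most like Cfl2 (0.994), Trip13 (0.994) and Dek (0.994). Dnmt3a had no neighbour as close, with Tob1 (0.946), Bcor (0.935) and Shoc2 (0.933) first. Mean levels in Aal, A1 and A3 were 37.6, 59.9 and 61.3 FPKM for Trip13 and 12.0, 10.6 and 9.24 FPKM for Tob1.

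Sertoli cell markers were set beside the members in each library. The first and second A1 libraries carried Sertoli marker sums of 58.7 and 56.5 FPKM, above the 50.05 and 39.2 of the Aal libraries. They held Dnmt3b at 66.4 and 81.6, Uhrf1 at 112 and 112 and Hells at 259 and 274 FPKM. Without the third A1 library, the one with a sum of 383, the log2 change from Aal to A1 was 1.22 for Dnmt3b (limma adjusted p = 2.72e-05), 1.2 for Uhrf1 (limma adjusted p = 1.28e-05) and 1.13 for Hells (limma adjusted p = 3.73e-05), and that of Dnmt3a was -0.15 (limma adjusted p = 0.244). The same 3 members were called as with all libraries. Every A1 and A3 library carried more Sertoli marker RNA than either Aal library, and its part in the A1 and A3 levels was not tested.

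**Figure D5:**
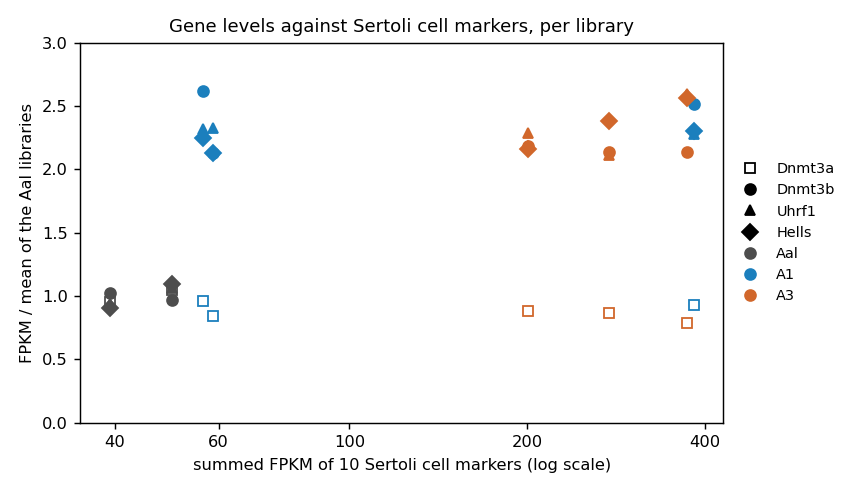
FPKM of each member divided by its mean in the Aal libraries (vertical axis) against the summed FPKM of 10 Sertoli cell markers (horizontal log axis), with 1 symbol for each gene and 1 colour for each stage. At sums of 56.5 and 58.7 the first and second A1 libraries (blue, left) hold Dnmt3b, Uhrf1 and Hells at more than 2 times the Aal mean. The part of Sertoli RNA in the A1 (blue) and A3 (orange) levels was not tested.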

How the data were processed

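RNA from sorted EGFP+ germ cells was made into TruSeq stranded mRNA libraries. Per the study's methods and the submitters' processing notes, reads were trimmed with cutadapt 1.9, reads of quality under 20 were removed, and the rest were mapped to mm9 with STAR 2.5.2b and counted per gene with featureCounts. The authors deposited FPKM values for each library. The annotation, the strand setting and the FPKM step are not given in the sources used here. The authors tested counts with DESeq2, and here, because the values are FPKM, limma 3.58.1 (R 4.3.3) was run on log2(FPKM + 1) with a mean-variance trend and Benjamini-Hochberg adjustment. Each pair of stages was fitted alone, with two-sided tests, over genes with FPKM of at least 1 in at least 2 libraries fitted. A call needed an adjusted p of at most 0.01 and a log2 change beyond 1. The difference between the steps was fitted over all 8 libraries and passed at 0.05. Replicates were the labels' numbered libraries.

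Reads were recovered from the steps in the FPKM values for 5736 of 5736 genes, within 0.02 reads of a whole number. The table holds 34.0% to 34.4% of each library's counted reads. Counting errors cover the counting of reads only. Named genes were the 4 members, the 3 most similar genes for each, Uchl1, Dnmt1 and a fixed set of methylation genes. Up to 4 called genes in each direction for each list were also named, with methylation list genes that missed only the fold. The members and the lists were chosen with earlier results of these data known. The script was tested on simulated data. Sequences are from RefSeq, and windows on chromosome 18 were not used.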

Additional observations from a re-analysis of the deposited data

Results flagged for a closer look

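For 3 of the 4 genes the change from A1 to A3 differed from the change from Aal to A1 by a test of the difference itself (limma over all 8 libraries, Benjamini-Hochberg adjusted). The difference, second step minus first, was -1.41 on the log2 scale for Dnmt3b (SE 0.14, adjusted p = 0.000533), -1.18 for Uhrf1 (SE 0.14, adjusted p = 0.000996) and -1.07 for Hells (SE 0.16, adjusted p = 0.00187). A difference below 0 passed for 13.6% of 4789 genes. A1 enters both steps with opposite sign, so an A1 level that is high by chance pushes the difference below 0. Each of the 3 was higher in 6 of 6 A1 and A3 libraries than in both Aal libraries, and the groups did not overlap for 64.0% of genes tested between A1 and Aal and for 73.1% between A3 and Aal. All groups held fewer than 4 libraries, so no group was tested for a sample far from the others.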

How the results depend on the processing

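Of 260 values of the members under other settings, 254 kept their direction and their side of the thresholds. The exception among calls was Dnmt3b in A3 against Aal, at 0.996 with quantile normalisation and so just under the fold required. The other 5 had values near 0 and no call. Uhrf1 in A3 against A1 turned to -0.0273 with quantile normalisation and ran from -0.0698 to 0.0770 when libraries were left out in turn, and the difference between the steps for Dnmt3a ran from -0.0744 to 0.107. With libraries left out, the change from Aal to A1 ran from 1.19 to 1.33 for Dnmt3b, 1.1 to 1.28 for Uhrf1 and 1.02 to 1.29 for Hells. A fit left with 1 Aal library assumes that it varies like the other group. Changes of filter, variance trend or thresholds, and a fit on all 8 libraries, leave a member's log2 change as it was. They could not turn its direction, and the looser thresholds could not remove a call.

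Counts of calls over all genes moved more. The 424 calls of A1 against Aal became 670 with a pseudocount of 0.1, 1252 with no fold required and 731 with voom on recovered reads, and ran from 179 (without the second Aal library) to 475 with libraries left out. The 69 calls of A3 against A1 became 152, 349 and 199 under the same settings and ran from 26 to 111: 32 without the second A1 library, 111 without the third, 107 without the first A3 library, 26 without the second and 32 without the third. The 823 calls of A3 against Aal became 538 with an FPKM minimum of 5, 2048 with no fold required, and ran from 597 to 878. The 1170 genes past the test of the steps ran from 649 (without the second Aal library) to 1228, with 662 without the second A1 library. The causes of these shifts were not tested.

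With the replicate number as a block the counts were 444, 39, 800 and 900 in the same order, and the members' calls stayed at 3, 0, 3 and 3. Deviations of same-numbered libraries from their group means had correlations of -0.323 to 0.045. With 2 or 3 libraries in a group, these values cannot show whether same-numbered libraries share an origin. Each group held only 2 or 3 libraries, which limits precision more than depth does for most values.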
